A study of Homo sapiens with 18 samples.

Results

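The thrombin receptors and thrombin-binding proteins of hepatic stellate cells described here are the protease-activated receptor genes F2R, F2RL1, F2RL2 and F2RL3, the thrombomodulin gene THBD and the thrombin-inhibitor gene SERPINE2. They were taken by symbol from the deposited gene count table, where all 6 were found among 28278 symbols. Of these, 5 had enough counts to be tested, within a set of 15353 tested genes. F2RL3, with at most 2 counts in any library, was not tested.

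RNA enriched for poly(A) transcripts from LX-2, an established cell line of human hepatic stellate origin, was sequenced in 18 libraries. Cells grown in 6-well plates were moved to serum-free medium for 1 h. Thrombin was then added at 1 U/mL, controls kept the serum-free medium, and RNA was taken after 4, 24 or 48 h. Treatment and time made 6 groups of 3 libraries, named below by the labels' numbers 12, 13 and 14. Every group was LX-2, so the values describe 1 immortalized line, and all groups, controls included, were without serum. The labels do not say whether the libraries of a group came from separate cultures, so the p-values reflect how these libraries varied, and that variation may be technical.

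Library totals ran from 14431044 to 23270601 counts, and levels are given in CPM, the count scaled to library size with TMM factors. Of 20 stellate cell markers, 15 averaged over 1 CPM, led by VIM at 3593 CPM, whereas LRAT, LUM and CYGB were under 0.3 CPM. Between the groups labelled control 24 h and thrombin 4 h, 11 of 15353 genes had an adjusted p under 0.05 (0.0716%). Between the control groups of 24 h and 4 h the number was 2340 (15.2%). An exchange of labels at 4 h or 24 h is possible and was not tested. Groups are named as labelled, and every direction below rests on those labels.

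Thrombin signals to cells by cutting the outer end of protease-activated receptors, G protein-coupled receptors whose newly exposed end then folds back and activates the same receptor. F2R encodes PAR1, the main thrombin receptor of many adherent cells, F2RL2 encodes PAR3, F2RL3 encodes PAR4, and F2RL1 encodes PAR2, which is cut chiefly by trypsin-like proteases. Thrombomodulin binds thrombin at the cell surface and turns it towards protein C, and SERPINE2 encodes protease nexin-1, a serpin that traps thrombin on cells and in matrix.

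F2R, F2RL1 and F2RL2 lie together on chromosome 5, whereas F2RL3 lies on chromosome 19. In RefSeq coordinates (GRCh38.p14), F2R spans chr5:76716126-76735770 and F2RL1 chr5:76819030-76835315, both on the plus strand, and F2RL2 spans chr5:76615482-76623403 on the minus strand. The gap between F2RL2 and F2R is 92722 bases and that between F2R and F2RL1 is 83259 bases. F2RL3 spans chr19:16888999-16892606 on the plus strand. The stretch that encodes the activating cut is shown for each receptor because it is what a protease acts on. Each is 30 bases of coding sequence from exon 2 of 2, read from the GENCODE 29 transcripts on GRCh38, 5′ to 3′ on the coding strand. Lower case marks the 12 bases before the cut, and capitals mark the 18 bases after it, which encode the start of the tethered ligand.
F2R (chr5:76732337-76732366, plus strand): ttagatccccggTCATTTCTTCTCAGGAAC
F2RL1 (chr5:76832704-76832733, plus strand): tctaaaggaagaAGCCTTATTGGTAAGGTT
F2RL2 (chr5:76618575-76618604, minus strand): ttacccattaagACCTTTCGTGGAGCTCCC
F2RL3 (chr19:16889593-16889622, plus strand): cctgccccccgcGGCTACCCAGGCCAAGTC
The cut falls after codon 41 in F2R, 36 in F2RL1, 38 in F2RL2 and 47 in F2RL3. Across the 18 bases after it, the receptors shared between 4 bases (F2R and F2RL3) and 7 bases (F2R and F2RL2, F2RL1 and F2RL2, F2RL1 and F2RL3) when aligned without gaps.

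In the libraries labelled thrombin, F2R rose at 4 h and fell at 24 h, and THBD did the opposite. At 24 h, F2RL1 and SERPINE2 also fell. At 4 h, 1 of the 5 tested genes rose and 1 fell, where 11.8% of all tested genes were called (6.29% higher, 5.52% lower). With library totals alone in place of TMM the higher and lower calls over all genes at 4 h numbered 1208 and 649, against 965 and 848. At 24 h, 1 rose and 3 fell, where 17.6% of all tested genes were called (9.05% higher, 8.54% lower). With library totals alone the median log2 fold change of all genes at 24 h moved from 0.00 to -0.11 and the calls from 1389 higher and 1311 lower to 845 and 2537, and the calls of the 5 genes stayed as they were at all 3 times. At 48 h, none of the 5 was called by edgeR's quasi-likelihood test, which called 0 of 15353 genes (0%). For all genes at 48 h, 1110 had an unadjusted p under 0.05, and DESeq2 called 20, with 1102 at an unadjusted p under 0.05. A gene is said to be called, or to rise or fall, where its adjusted p over all tested genes was under 0.05. In bulk RNA, fewer cells with a transcript and less of it per cell cannot be told apart.

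**Figure D1:**
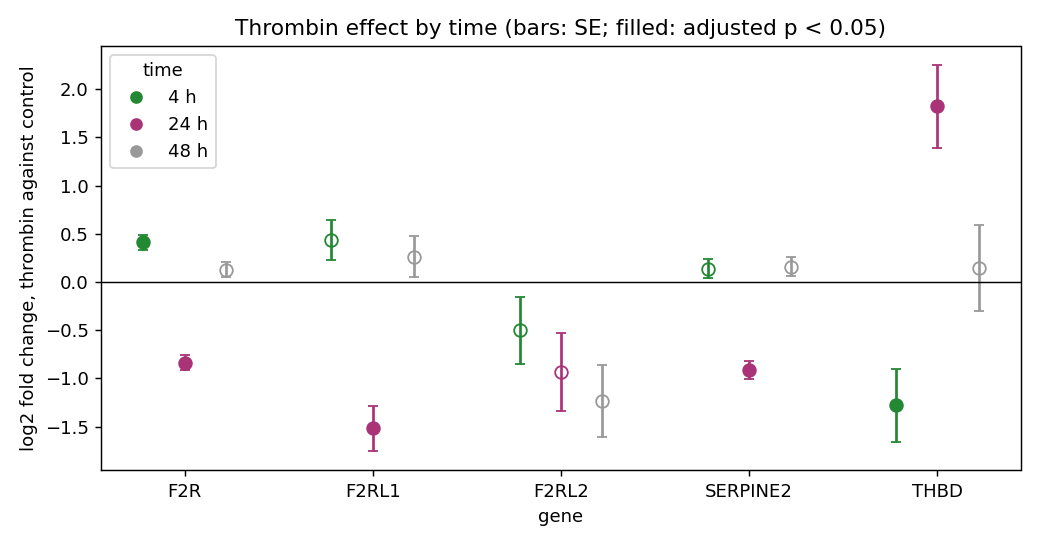
The vertical axis is the log2 fold change, thrombin against control, for each of the 5 tested genes at 4 h (green), 24 h (purple) and 48 h (grey), with bars of 1 SE and filled points for an adjusted p under 0.05. The 24 h points of F2R, F2RL1 and SERPINE2 lie below 0 and that of THBD lies above it, at 1.82.

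F2R was the most abundant of the receptors. At 4 h the control libraries 12, 13 and 14 had 169.6, 192 and 162 CPM and the thrombin libraries, in the same order, 243, 227 and 227 CPM. At 24 h controls had 266, 283 and 273 CPM and thrombin libraries 162, 157 and 140.3 CPM. At 48 h controls had 194, 192 and 192 CPM and thrombin libraries 199.7, 216 and 214 CPM. The treated and control libraries did not overlap at any of the 3 times: thrombin libraries were the higher at 4 h and 48 h and the lower at 24 h. Groups did not overlap in 25.8% of tested genes at 4 h, 34.1% at 24 h and 14.2% at 48 h.

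The F2R log2 fold change was 0.41 ± 0.08 (SE, n = 3 libraries a group) at 4 h (adjusted p = 0.00105), a 1.33-fold higher level. At 24 h it was -0.84 ± 0.08 (adjusted p = 2.14e-08), a ratio of 0.559. At 48 h it was 0.13 ± 0.08 (adjusted p = 0.746). Without the libraries numbered 13 the 4 h value was 0.50 with an adjusted p of 0.0544. The 24 h call remained in each of the 15 alternatives run, with values from -0.95 to -0.78. Of the F2R exons, 39 bases are shared with an antisense gene, AC025188.1, in GENCODE 29, and the strand setting of the authors' counting is unknown here.

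F2RL1 was far less abundant, with 32 to 141 counts in a library. Its control libraries of 4 h had 4.56, 5.91 and 3.34 CPM and the thrombin libraries 6.53, 7.12 and 5.37 CPM, and the groups overlapped. At 24 h its controls had 8.62, 5.94 and 7.39 CPM and the thrombin libraries 2.42, 2.17 and 2.99 CPM, so that every thrombin library was below every control library. At 48 h the values were 4.41, 4.75 and 4.04 CPM without thrombin and 3.46, 5.73 and 6.71 CPM with it. There the thrombin libraries lay on both sides of the controls.

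The F2RL1 log2 fold change at 24 h was -1.52 ± 0.23 (adjusted p = 3.95e-05), a ratio of 0.349, the largest fall among the 5 tested genes at that time. It remained called in all 15 alternatives, from -1.67 to -1.35. At 4 h the value was 0.43 ± 0.21 (adjusted p = 0.184), and at 48 h it was 0.26 ± 0.22 (adjusted p = 0.809), neither called.

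F2RL2, whose product PAR3 binds thrombin and can act as a helper of other receptors, was near the lower edge of what was tested, with 4 to 36 counts in a library. Controls of 4 h had 1.18, 1.37 and 1.88 CPM and thrombin libraries 1.17, 1.11 and 0.797 CPM. Controls of 24 h had 1.74, 0.990 and 0.961 CPM and thrombin libraries 0.269, 1.16 and 0.508 CPM. Controls of 48 h had 1.47, 1.44 and 2.02 CPM and thrombin libraries 0.555, 0.767 and 0.753 CPM. Thrombin libraries were below controls without overlap at 4 h and 48 h, and at 24 h thrombin library 13 lay among the controls.

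F2RL2 was not called between thrombin and control at any of the 3 times. Its log2 fold changes were -0.50 ± 0.35 at 4 h (adjusted p = 0.378), -0.93 ± 0.41 at 24 h (adjusted p = 0.117) and -1.23 ± 0.37 at 48 h (adjusted p = 0.428, unadjusted p = 0.00273, edgeR). The 48 h value ranked 95 by p among 15353 genes. Without thrombin library 13 of 24 h, the 24 h value was -1.61 with an adjusted p of 0.0166. F2RL2 lies within IQGAP2, a gene on the opposite strand (chr5:76403285-76708132), and 87 of its exonic bases are also IQGAP2 exon in GENCODE 29. With the strand setting of the counting unknown, reads of those bases cannot be told apart. IQGAP2 itself had 4 to 20 counts in a library. Its log2 fold changes were -0.06 ± 0.46 at 4 h (adjusted p = 0.954), -0.89 ± 0.50 at 24 h (adjusted p = 0.231) and 0.41 ± 0.43 at 48 h (adjusted p = 0.859). None was called by edgeR, and the part of IQGAP2 reads in the F2RL2 values was not tested.

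F2RL3, the gene of the second thrombin-activated receptor of human platelets, was hardly counted. Control library 12 of 4 h and thrombin library 14 of 24 h had 1 count each, as did thrombin library 13 of 48 h. Thrombin library 14 of 4 h and thrombin library 12 of 48 h had 2 counts each. The other 13 libraries had 0, and 3 counts in such a library would correspond to between 0.132 and 0.209 CPM. Any difference between groups was not detectable at this depth, and these limits cover counting error only.

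**Figure D2:**
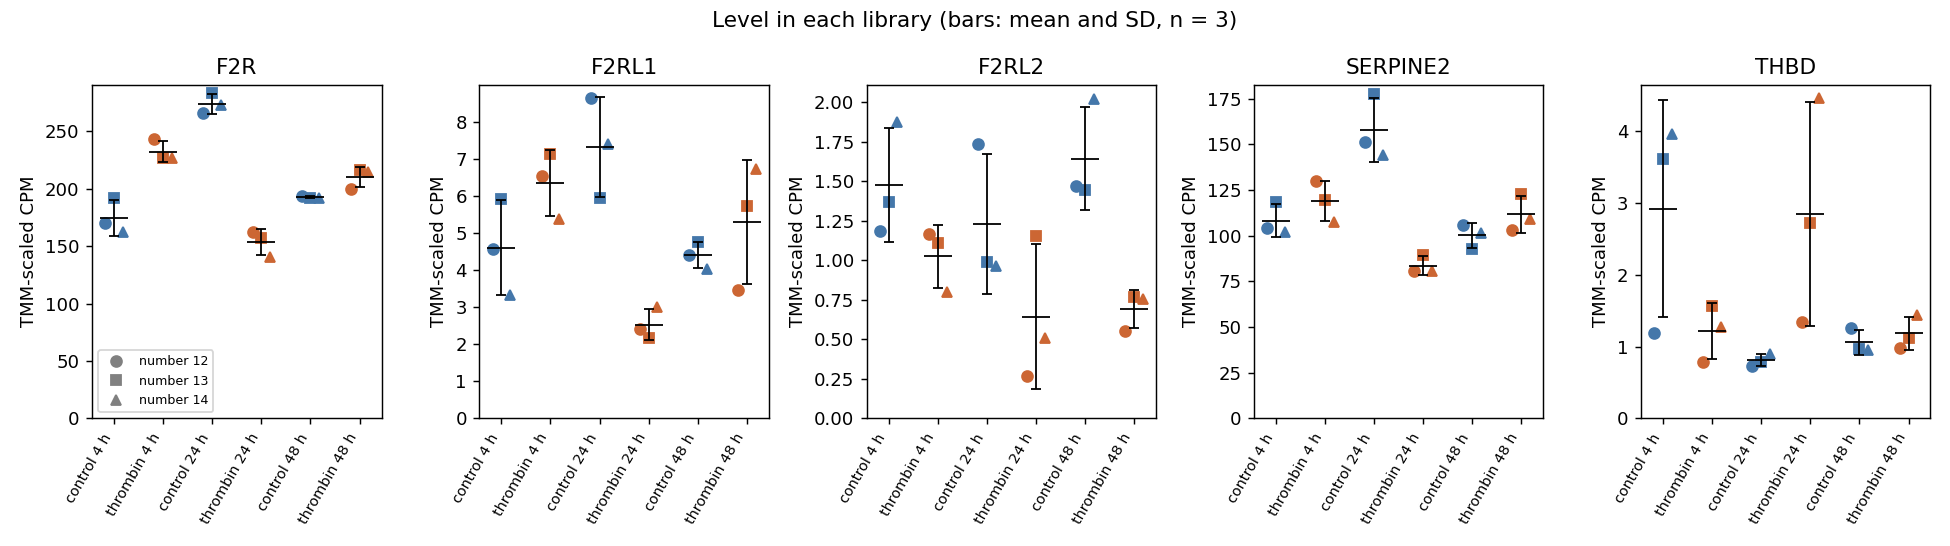
Each panel plots the TMM-scaled CPM of a gene on a linear axis from 0 in the 18 libraries by group, control in blue and thrombin in orange, with the mean and SD of 3 libraries; the marker shape is the label's number. In F2R the 3 control libraries of 24 h are the highest, from 266 to 283 CPM, and THBD has its 2 widest groups at control 4 h and thrombin 24 h.

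SERPINE2, the serpin that inhibits thrombin, had a lower mean level per length of transcript than F2R in each of the 6 groups. Controls of 4 h had 104, 119 and 102 CPM and thrombin libraries 130.01, 119.6 and 108 CPM, with overlap. Controls of 24 h had 151, 178 and 144 CPM and thrombin libraries 80.9, 89.4 and 80.7 CPM. Controls of 48 h had 106, 92.8 and 102 CPM and thrombin libraries 103, 123 and 109 CPM, again with overlap. Only at 24 h did the groups stand apart, with thrombin the lower.

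The SERPINE2 log2 fold change was -0.91 ± 0.10 at 24 h (adjusted p = 1.46e-07), a ratio of 0.53, and it remained called in all 15 alternatives, from -1.02 to -0.82. It was 0.14 ± 0.10 at 4 h (adjusted p = 0.378) and 0.16 ± 0.10 at 48 h (adjusted p = 0.745). SERPINE2 spans chr2:223975045-224039286 on the minus strand, and its longest coding transcript used here has 10 exons.

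THBD, a gene with 1 exon at chr20:23045633-23049672 on the minus strand, had 11 to 82 counts in a library. Controls of 4 h had 1.18, 3.62 and 3.96 CPM and thrombin libraries 0.792, 1.56 and 1.28 CPM. Control libraries 13 and 14 were high, and control library 12 lay within the thrombin range. Controls of 24 h had 0.735, 0.792 and 0.901 CPM and thrombin libraries 1.35, 2.72 and 4.46 CPM. The groups did not overlap, and the thrombin libraries were spread widely, with library 14 the highest. Controls of 48 h had 1.26, 0.962 and 0.953 CPM and thrombin libraries 0.987, 1.13 and 1.44 CPM, with overlap.

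The THBD log2 fold change was -1.28 ± 0.38 at 4 h (adjusted p = 0.0289), 1.82 ± 0.43 at 24 h (adjusted p = 0.00376), a ratio of 3.53, and 0.15 ± 0.45 at 48 h (adjusted p = 0.960). The 4 h call did not hold without control library 13 (-1.06, adjusted p = 0.148) or control library 14 (-1.04, adjusted p = 0.132). It was also lost without thrombin library 12 (-1.03, adjusted p = 0.0952) or thrombin library 14 (-1.32, adjusted p = 0.0900), and without the libraries numbered 13 (-1.29, adjusted p = 0.319) or 14 (-1.08, adjusted p = 0.217). The 24 h call was lost without thrombin library 14 (1.31, adjusted p = 0.0606), and without the libraries numbered 13 (1.84, adjusted p = 0.0757) or 14 (1.41, adjusted p = 0.113). The sign was the same in all of these. The edgeR estimate of the variation between libraries beyond counting error, as a coefficient of variation, was 28.9% for THBD and 18.2% for F2RL2. It was 15.2% for F2RL1, 8.34% for SERPINE2 and 6.99% for F2R. The coefficient of variation of CPM within a group includes counting error. It ran from 10.4% to 54.9% for THBD and from 17.1% to 71.2% for F2RL2.

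THBD is a textbook endothelial gene, so endothelial markers were read beside it. Of 16, 7 averaged over 1 CPM, and LYVE1 and CLEC4G, which mark liver sinusoidal endothelium, had 0 counts in all libraries. STAB2, also a marker of it, averaged 0.738 CPM, with 5 to 21 counts in a library. The highest means among the 16 were those of EGFL7 (63.3 CPM) and TIE1 (35.3 CPM). The summed level of the 16 ran from 129 to 134 CPM in control and 118 to 156 CPM in thrombin at 4 h. It ran from 131 to 147 CPM in control and 106 to 132 CPM in thrombin at 24 h, and at 48 h from 110.1 to 121 CPM and 122 to 144 CPM. At 24 h, CDH5 (1.66) and KDR (0.93) rose and PECAM1 (-1.25) fell in log2 fold change. The other 9 of the 12 tested markers were not called, where 17.6% of all tested genes were. CDH5 had 2 to 28 counts in a library, KDR 12 to 60 and PECAM1 31 to 108. At 4 h and 48 h none of the 12 was called, where 11.8% and 0% of all tested genes were. Their part in the THBD result was not tested.

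The change of the thrombin effect between times was tested with its own contrast. From 4 h to 24 h the effect on F2R changed by -1.25 ± 0.11 (adjusted p = 4.58e-09), on F2RL1 by -1.95 ± 0.31 (adjusted p = 4.20e-05), on SERPINE2 by -1.05 ± 0.13 (adjusted p = 2.09e-06) and on THBD by 3.10 ± 0.57 (adjusted p = 0.000245), all in log2 units. In this contrast 28% of all tested genes were called (13.6% higher, 14.3% lower). From 24 h to 48 h, with 13.8% of genes called (7.16% higher, 6.68% lower), the changes were 0.96 ± 0.11 for F2R (adjusted p = 9.76e-07), 1.78 ± 0.32 for F2RL1 (adjusted p = 0.000429) and 1.07 ± 0.14 for SERPINE2 (adjusted p = 4.72e-06). The THBD value was -1.67 ± 0.63 (adjusted p = 0.0753), not called here. It was called with a replicate block (adjusted p = 0.0346), with no filter on low counts (adjusted p = 0.00435), without thrombin library 12 of 24 h (adjusted p = 0.0211) and without the libraries numbered 12 (adjusted p = 0.0403). F2RL2 was called in neither contrast. Between 4 h and 48 h none of the 5 was called, where 0.632% of genes were (edgeR), and without the libraries numbered 12 the THBD value there was 1.80 with an adjusted p of 0.0239 against 1.43 and 0.328 with them. The contrasts share the libraries of 24 h.

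The control libraries changed over time as well. From 4 h to 24 h in control, F2R rose by 0.65 ± 0.08 (adjusted p = 2.89e-06), SERPINE2 by 0.54 ± 0.10 (adjusted p = 0.000325) and F2RL1 by 0.64 ± 0.21 (adjusted p = 0.0401), while THBD changed by -1.84 ± 0.42 (adjusted p = 0.00405). In all, 4 of the 5 were called, where 15.2% of genes were (8.1% higher, 7.15% lower). From 24 h to 48 h in control, F2R fell by 0.51, SERPINE2 by 0.66 and F2RL1 by 0.73 (adjusted p = 0.000363, 0.000215 and 0.0400), where 6.12% of genes were called (2.69% higher, 3.43% lower). Between control 4 h and control 48 h, with 7.93% called (3.76% higher, 4.17% lower), F2R differed by 0.14 ± 0.08 (adjusted p = 0.285), and only THBD was called among the 5 (-1.46 ± 0.39, adjusted p = 0.0220).

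Several of these calls over time were lost when a library or a number was left out, which leaves fewer samples. The F2RL1 call from 4 h to 24 h was lost without control library 12 or 14 of 24 h (adjusted p = 0.192 and 0.0810), without control library 12 or 14 of 4 h (0.0824 and 0.186), and without any 1 of the 3 numbers (12, 0.179; 13, 0.0537; 14, 0.226). That from 24 h to 48 h was lost whichever of its 6 libraries was left out (adjusted p = 0.0550 to 0.234), and without any 1 of the 3 numbers. The THBD difference between control 4 h and 48 h was lost without control library 13 or 14 of 4 h (adjusted p = 0.106 and 0.0914), without control library 12 or 13 of 48 h (0.0542 and 0.0882), and without the libraries numbered 13 (0.392) or 14 (0.126). Leaving out the libraries numbered 13 also ended the THBD call from 4 h to 24 h (adjusted p = 0.179), and those of F2R (0.118) and SERPINE2 (0.110) from 24 h to 48 h.

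In the thrombin libraries, F2R, F2RL1, SERPINE2 and THBD moved opposite to control from 4 h to 24 h and then to 48 h. The THBD change from 24 h to 48 h in control, 0.38, was not called. From 4 h to 24 h F2R fell by 0.60, F2RL1 by 1.31 and SERPINE2 by 0.51, and THBD rose by 1.26 (adjusted p = 4.74e-06, 0.000254, 0.000532 and 0.0275), where 15.1% of genes were called (7.85% higher, 7.28% lower). From 24 h to 48 h F2R rose by 0.46, F2RL1 by 1.05 and SERPINE2 by 0.42, and THBD fell by 1.29 (adjusted p = 0.000250, 0.00464, 0.00494 and 0.0394), where 9.72% were called (4.31% higher, 5.41% lower). Between thrombin 4 h and thrombin 48 h none of the 5 was called, where 1.11% were (edgeR). The THBD rise was lost without thrombin library 12 or 14 of 4 h (adjusted p = 0.0938 and 0.0771), thrombin library 14 of 24 h (0.284) or the libraries numbered 13 (0.146) or 14 (0.407). Its later fall was lost without any 1 of the 3 thrombin libraries of 48 h (adjusted p = 0.135, 0.135 and 0.0622), thrombin library 13 or 14 of 24 h (0.0767 and 0.345), or the libraries numbered 13 (0.319) or 14 (0.371). The SERPINE2 rise was lost without thrombin library 13 of 48 h (0.0524) or the numbers 13 (0.121) or 14 (0.0584), and that of F2RL1 without number 13 (0.150). For F2RL2, which was not called from 4 h to 24 h, the value without thrombin library 13 of 24 h was -1.36 (adjusted p = 0.0455).

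Ordered by mean level, F2R ran from control 24 h (274 ± 8.72 CPM, SD, n = 3) through thrombin 4 h (232 ± 9.27), thrombin 48 h (210.1 ± 9.00), control 48 h (192 ± 1.02) and control 4 h (175 ± 15.6) to thrombin 24 h (153 ± 11.5). No pair of neighbours in that order was called, although thrombin 24 h was below control 48 h (adjusted p = 0.00843). SERPINE2 had the same group at each end, from 158 ± 17.6 CPM in control 24 h to 83.7 ± 4.97 CPM in thrombin 24 h, and again no neighbours were called. F2RL1 ran from 7.32 ± 1.34 CPM in control 24 h to 2.53 ± 0.418 CPM in thrombin 24 h, and the lowest group differed from its neighbour, control 48 h (4.40 ± 0.360 CPM, adjusted p = 0.0476). THBD was highest in control 4 h (2.92 ± 1.51 CPM) and thrombin 24 h (2.84 ± 1.56 CPM), which were not called different, then came thrombin 4 h (1.211 ± 0.390 CPM), called below thrombin 24 h (adjusted p = 0.0275) though the groups overlapped. It was lowest in control 24 h, at 0.809 ± 0.0843 CPM. F2RL2 ran from 1.64 ± 0.324 CPM in control 48 h to 0.644 ± 0.459 CPM in thrombin 24 h, with no neighbours called. Those ends were called different (adjusted p = 0.0289, edgeR). They were picked as the highest and lowest means, and the adjustment over genes does not cover that choice.

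Groups that differ in both time and treatment were compared as labelled, without refits under the alternatives. Between control 24 h and thrombin 4 h none of the 5 was called (edgeR), where 0.0716% of all genes were. SERPINE2 and F2R were higher in all control libraries, but the share of all genes without overlap was not counted for this pair. The log2 differences, control minus thrombin, were 0.40 for SERPINE2 (adjusted p = 0.158, unadjusted p = 0.000238, rank 23 by p among 15353 genes) and 0.24 for F2R (adjusted p = 0.528, unadjusted p = 0.00474, rank 138). For F2RL1 the value was 0.21 and for THBD it was -0.56 (adjusted p = 0.999 each). Between thrombin 48 h and control 24 h, where 0.358% of genes were called, F2R (-0.38, adjusted p = 0.0216) and SERPINE2 (-0.50, adjusted p = 0.0138) were lower with thrombin. Between thrombin 24 h and control 4 h, where 3.34% were called, F2RL1 (-0.88, adjusted p = 0.0385) and SERPINE2 (-0.37, adjusted p = 0.0270) were lower with thrombin. THBD differed there by -0.02 ± 0.35 (adjusted p = 0.985). Between control 48 h and thrombin 24 h, where 6.87% were called, F2R (0.33), F2RL1 (0.79) and F2RL2 (1.36) were higher in control and THBD (-1.44, adjusted p = 0.0256) was lower. Between thrombin 48 h and control 4 h, where 12.3% were called, F2R was higher with thrombin (0.26, adjusted p = 0.0249) and THBD was lower (-1.31, adjusted p = 0.0289). Between control 48 h and thrombin 4 h none of the 5 was called (edgeR), where 3.02% were, and F2R had an adjusted p of 0.0518.

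Per length of transcript the group means of the genes fell into 3 tiers. F2R measured between 40.1 and 71.7 CPM per kb over the 6 group means and SERPINE2 between 32.6 and 61.4 CPM per kb. F2RL1 measured between 0.868 and 2.51 CPM per kb. THBD, at 0.197 to 0.711 CPM per kb, and F2RL2, at 0.188 to 0.479 CPM per kb, had ranges that overlapped. In thrombin 24 h, F2RL1 was at 0.868 ± 0.144 and THBD at 0.691 ± 0.380 CPM per kb (SD, n = 3). There the means lay within the THBD SD of each other. Lengths were those of the longest coding transcript in the GENCODE 29 basic set, 3.821 kb for F2R and 2.569 kb for SERPINE2, and which transcripts LX-2 uses was not measured.

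**Figure D3:**
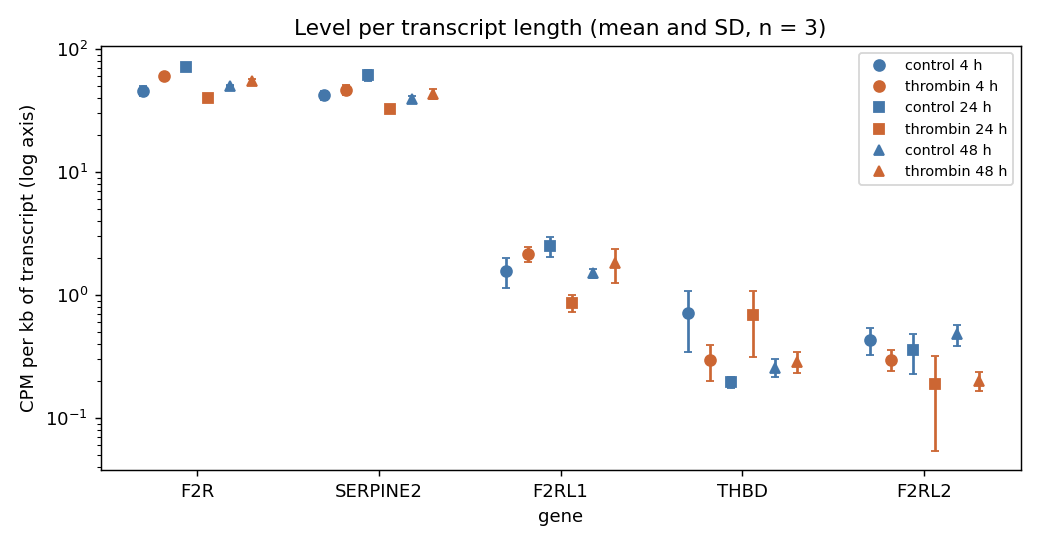
The vertical axis is the mean level in CPM per kb of transcript on a log scale, with the SD over 3 libraries, for each tested gene in the 6 groups, control in blue and thrombin in orange, with the time given by the marker shape. F2R and SERPINE2 lie between 32.6 and 71.7 CPM per kb in every group, and the other 3 genes lie at or below 2.51.

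Across the 18 libraries, which share groups and times, F2R and SERPINE2 levels went together. Pearson's r of log2 CPM was 0.91 and Spearman's rho 0.93, and r was 0.64 after each group's mean was removed. Among the 11507 genes with a mean of at least 5 CPM compared with it, SERPINE2 was the gene 7th in likeness to F2R, and F2R was among the 3 most like SERPINE2. F2R with F2RL1 gave r = 0.84 (0.32 within groups), and F2R with THBD gave r = -0.71 (-0.27 within groups). Those 2 relations were weaker within groups. F2RL1 and THBD had few counts, and counting error can lower r within groups. Its part was not tested. F2R with F2RL2 gave r = 0.20. These correlations are descriptions over libraries that fall into groups, and no p is given.

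**Figure D4:**
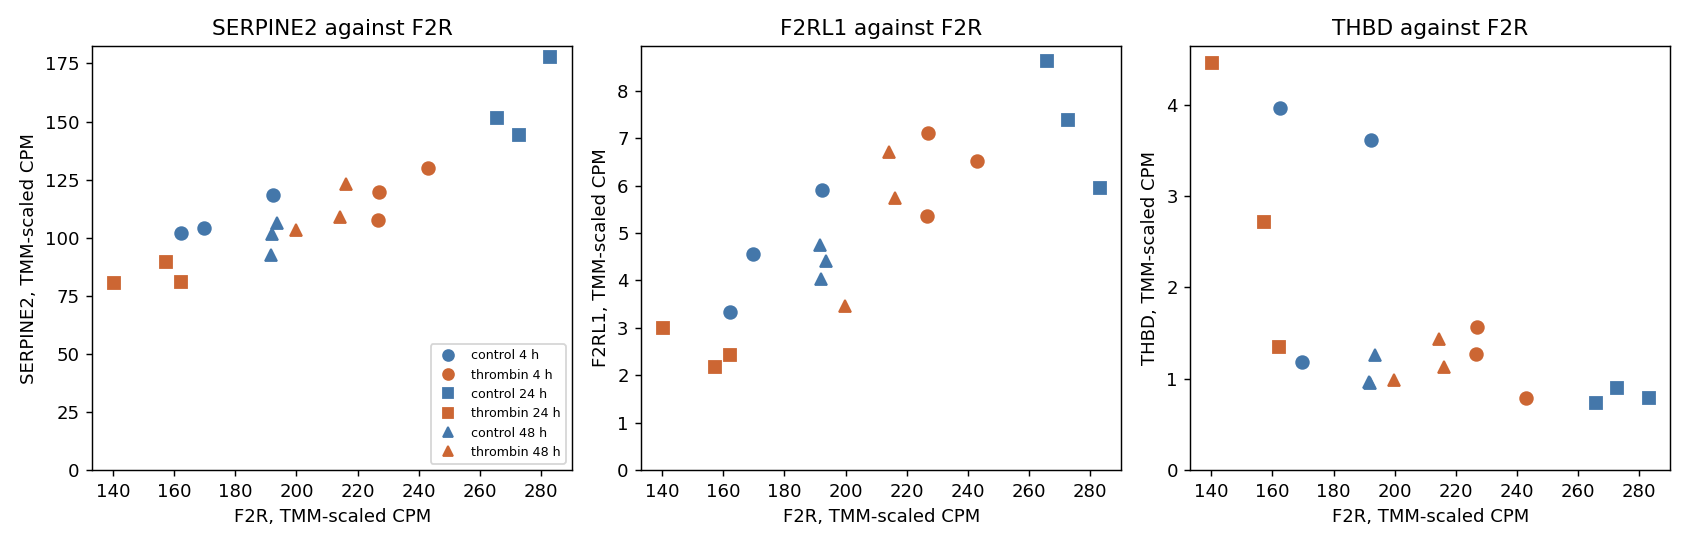
Each point is a library, with F2R on the horizontal axis and SERPINE2, F2RL1 or THBD on the vertical axis, all in TMM-scaled CPM, coloured by treatment and shaped by time. SERPINE2 is highest in the control 24 h libraries, where F2R is between 266 and 283 CPM, and THBD there is between 0.735 and 0.901 CPM. F2RL1 has its highest library there, at 8.62 CPM. Its control 24 h library 13, at 5.94 CPM, lies below thrombin 4 h libraries 12 and 13, at 6.53 and 7.12 CPM.

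The genes most like F2R over the 18 libraries were WIPF1, which encodes an actin-regulating protein (r = 0.94), PGPEP1, a peptidase gene (0.92), and KLF4, a zinc finger transcription factor gene (0.92). The most opposite were TAGLN, which encodes transgelin, EVA1A and MYO7B, each at r = -0.94. KLF4 was also the gene most like SERPINE2 (0.92), and TAGLN (-0.90) was among its 3 most opposite. MILR1 and TOB1 were among the 3 genes most like F2RL1 (0.88 each), which was most opposite to GADD45B, SLC2A14 and PDGFA (-0.89 to -0.88). THBD was most like TLE1 (0.94), KCNC4 (0.94) and TBX3 (0.93). For F2RL2, with few counts, the highest r was 0.70, with NUDT2.

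Promoter sequence is shown for F2RL1 and SERPINE2, which fell together at 24 h. Sequences are the 250 bases before each start site in RefSeq (GRCh38.p14), which held promoters for 4 of the 6 genes. Both strands were searched for 7 motifs. The GC box was searched as GGGCGG, bound by Sp family factors, and the CCAAT box by the letters of its name. The box bound by the TATA-binding protein was searched as TATAAA, and the site of the AP-1 dimer as TGANTCA. The site of TEAD factors was searched as CATTCC, the E-box as CACGTG, and the CArG box by its usual pattern. No match overlapped another, and capitals mark matches. F2RL1 had 1 start and SERPINE2 had 2. The SERPINE2 starts are named outer and inner only relative to each other, and both windows lie within the gene span given above.
F2RL1 (chr5:76818780-76819029, plus strand): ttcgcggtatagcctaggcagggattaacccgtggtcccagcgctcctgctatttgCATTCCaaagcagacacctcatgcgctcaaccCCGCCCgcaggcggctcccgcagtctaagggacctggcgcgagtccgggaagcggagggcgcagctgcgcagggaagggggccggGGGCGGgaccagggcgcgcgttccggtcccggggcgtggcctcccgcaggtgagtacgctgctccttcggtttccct
SERPINE2, outer start (chr2:224038641-224038890, minus strand): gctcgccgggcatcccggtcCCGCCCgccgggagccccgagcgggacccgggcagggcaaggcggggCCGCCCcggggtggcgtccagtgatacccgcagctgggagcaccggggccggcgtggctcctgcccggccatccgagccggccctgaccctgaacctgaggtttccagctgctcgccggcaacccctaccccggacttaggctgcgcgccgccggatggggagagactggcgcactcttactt
SERPINE2, inner start (chr2:224031479-224031728, minus strand): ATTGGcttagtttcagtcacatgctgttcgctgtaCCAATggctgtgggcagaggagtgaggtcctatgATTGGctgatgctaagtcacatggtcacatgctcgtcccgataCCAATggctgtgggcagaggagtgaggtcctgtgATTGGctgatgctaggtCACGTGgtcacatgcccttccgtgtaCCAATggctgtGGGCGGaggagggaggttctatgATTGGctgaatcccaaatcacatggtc
F2RL1 had 2 GC boxes and 1 TEAD match in 68.8% G and C, and the outer SERPINE2 start had 2 GC boxes in 75.2% G and C, against a median of 58% over 35116 promoters. A GC box was present in 42.6% of promoters and a TEAD match in 11.9%. The inner SERPINE2 start, at 53.2% G and C, had 7 CCAAT boxes, 1 GC box and 1 E-box. At least 1 CCAAT box was present in 32% of promoters, and 7 or more in 7 of 35116 (0.0199%). None of the 3 windows had a TATA box, AP-1 or CArG match, present in 10.7%, 6.57% and 1.16% of promoters. Gene-level counts do not tell which SERPINE2 start was used, and a match is a description of letters, not a bound site.

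Other genes that meet thrombin or its receptors were read from 5 lists. Their counts stand beside all tested genes, of which 6.29% rose and 5.52% fell at 4 h, and 9.05% rose and 8.54% fell at 24 h. Of 16 tested genes for thrombin binding, inhibition and clearance, 0 rose and 3 fell at 4 h, and 4 rose and 1 fell at 24 h, with median log2 fold changes of 0.02 and 0.03 beside 0.00 for all genes. With library totals alone or no filter on low counts 3 fell at 24 h, and 2 fell with the libraries of that time alone or a replicate block. With no filter 1 rose at 4 h. Without the libraries numbered 13, 1 fell at 4 h and 2 rose at 24 h, and 1 rose at 4 h without number 12 or thrombin library 12. At 24 h, 2 fell without number 14 or control library 14, and 0 fell without thrombin library 14. SDC4, a heparan sulfate proteoglycan gene, changed by -0.64 ± 0.08 at 4 h (adjusted p = 1.56e-05) and 1.02 ± 0.08 at 24 h (adjusted p = 1.90e-09). GPC1, a glypican gene, rose by 0.37 ± 0.08 at 24 h (adjusted p = 0.00164), and PROCR, the endothelial protein C receptor gene, changed by -0.49 ± 0.12 (adjusted p = 0.00518). PROCR was not called without thrombin library 14 of 24 h (-0.36, adjusted p = 0.0578), nor was GPC1 without number 13 (0.35, adjusted p = 0.108).

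Of 11 tested genes for proteases that cut these receptors, and their cofactors, 2 rose and 1 fell at 4 h and 2 rose and 2 fell at 24 h, where 11.8% and 17.6% of all genes were called. At 4 h the genes that rose numbered 0 without number 13 and 1 without number 14, control library 12 or 14 or thrombin library 13 or 14. Those that fell numbered 0 without number 13, 2 without number 14 or control library 14, and 3 without number 12. The libraries of 4 h alone gave 1 that rose and 2 that fell. A replicate block gave 2 that fell, and no filter on low counts gave 3. At 24 h, 1 fell without number 12, number 14 or thrombin library 14. F3, the tissue factor gene, changed by -0.66 ± 0.14 at 4 h and 1.14 ± 0.14 at 24 h (adjusted p = 0.00281 and 3.02e-06). CTSS, which encodes cathepsin S, moved the other way, by 0.89 ± 0.20 and -1.37 ± 0.21 (adjusted p = 0.00527 and 3.19e-05). MMP9, a gelatinase gene, rose by 1.30 ± 0.19 at 24 h (adjusted p = 0.000121), and F10, the factor X gene, changed by -0.70 ± 0.18 (adjusted p = 0.00829). At 4 h, F3 (adjusted p = 0.203) and CTSS (0.110) were not called without number 13. F10 was not called without thrombin library 14 of 24 h (adjusted p = 0.0701), number 12 (0.0569) or number 14 (0.0782).

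Of 40 genes for G proteins and first effectors, 4 rose and 4 fell at 4 h, and 10 rose and 0 fell at 24 h, where 9.05% of all genes rose. The median log2 fold change at 24 h was 0.06, and with library totals alone 5 rose and 4 fell. Also at 24 h, 1 fell with DESeq2 and 1 without the libraries of 4 h. At 4 h, 1 rose with the libraries of that time alone, and 2 fell with library totals alone. At 24 h, 4 rose without control library 12, 6 without thrombin library 12 and 3 without number 13. At 4 h the genes that rose numbered 0 without number 13, 2 without number 14, control library 13 or thrombin library 14, and 7 without thrombin library 12. Those that fell numbered 0 without number 13, 13 without number 12 and 8 without control library 12. They numbered 2 without number 14, control library 13 or 14, or thrombin library 13. GNG5, a G protein gamma subunit gene, rose at 24 h by 0.86 ± 0.12 (adjusted p = 1.18e-05), PLCB4, a phospholipase C gene, by 0.75 ± 0.13 (adjusted p = 0.000159), PRKCA by 0.45 ± 0.11 (adjusted p = 0.00575) and GNAI3 by 0.34 ± 0.08 (adjusted p = 0.00525). At 4 h, PRKCD, a protein kinase C gene, rose by 0.49 ± 0.10 (adjusted p = 0.00175) and RHOB, a small GTPase gene, fell by 0.49 ± 0.10 (adjusted p = 0.00180). Without the libraries numbered 13, PRKCA (adjusted p = 0.0863), GNAI3 (0.131), PRKCD (0.161) and RHOB (0.0903) were not called. PRKCD was not called without number 14 (0.0594) either. GNAI3 was not called with library totals alone (0.23, adjusted p = 0.0503).

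Of 40 tested genes for desensitization and sorting of the receptors, 2 rose and 3 fell at 4 h, and 7 rose and 2 fell at 24 h, where 11.8% and 17.6% of all genes were called. Library totals alone gave 4 that rose at 4 h, and 3 that rose and 8 that fell at 24 h. DESeq2 gave 4 that rose at 4 h, and the libraries of 4 h alone gave 0. At 24 h, 3 rose without control library 12, thrombin library 14, number 13 or number 14, and 4 rose without control library 13 or 14 or thrombin library 13. At 4 h the genes that rose numbered 7 without number 12, 5 without thrombin library 12, 0 without number 13 or 14, and 1 without library 13 or 14 of control or thrombin. Those that fell numbered 7 without number 12, 0 without number 13 and 1 without number 14. GRK5, a receptor kinase gene, changed by -0.69 ± 0.08 at 24 h (adjusted p = 7.45e-07). CAVIN1 and CAV1, which encode caveolar coat proteins, rose at 24 h by 0.82 ± 0.07 (adjusted p = 6.79e-09) and 0.47 ± 0.09 (adjusted p = 0.000490). BICD1, which encodes a cargo adaptor that binds PAR1, rose by 0.67 ± 0.11 (adjusted p = 0.000106). At 4 h CAVIN1 changed by -0.39 ± 0.07 (adjusted p = 0.000788) and BICD1 by -0.53 ± 0.11 (adjusted p = 0.00227). Without number 13 these 4 h values had adjusted p of 0.191 and 0.296, and BICD1 had 0.0737 without number 14.

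Of 20 tested transcription factor genes known at the thrombomodulin and PAR1 genes, 4 rose and 4 fell at 4 h, and 3 rose and 3 fell at 24 h (5 with library totals alone), where 11.8% and 17.6% of all genes were called. At 4 h the genes that rose numbered 0 without number 13, 1 without number 14, control library 14 or thrombin library 14, and 2 without thrombin library 13. Those that fell numbered 1 without number 13 and 2 without number 14 or control library 13. With the libraries of 4 h alone 1 rose. At 24 h, 1 fell without number 12 or number 14. RARB, a retinoic acid receptor gene, changed by -1.86 ± 0.19 at 4 h (adjusted p = 8.82e-07) and 2.51 ± 0.21 at 24 h (adjusted p = 2.74e-09), the same signs as THBD at both times. At 24 h its level was 2.14 ± 0.541 CPM without thrombin and 12.3 ± 1.18 CPM with it. ETS1 rose at 24 h by 0.96 ± 0.10 (adjusted p = 1.43e-07). KLF4 changed by -1.34 ± 0.16 at 24 h (adjusted p = 2.68e-06), the sign opposite to THBD, as did NR1H3, the LXR-alpha gene, by -1.01 ± 0.23 (adjusted p = 0.00257). RXRA, a partner of both nuclear receptors, rose at 4 h by 0.50 ± 0.08 (adjusted p = 0.000347). RXRA was not called without number 13 (adjusted p = 0.109), and NR1H3 was not called without number 12 (0.0680) or 14 (0.0743). At 48 h none of the tested genes of the 5 lists was called (edgeR), as was the case for all genes. With no filter on low counts 1 gene of the transcription factor list rose there.

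**Figure D5:**
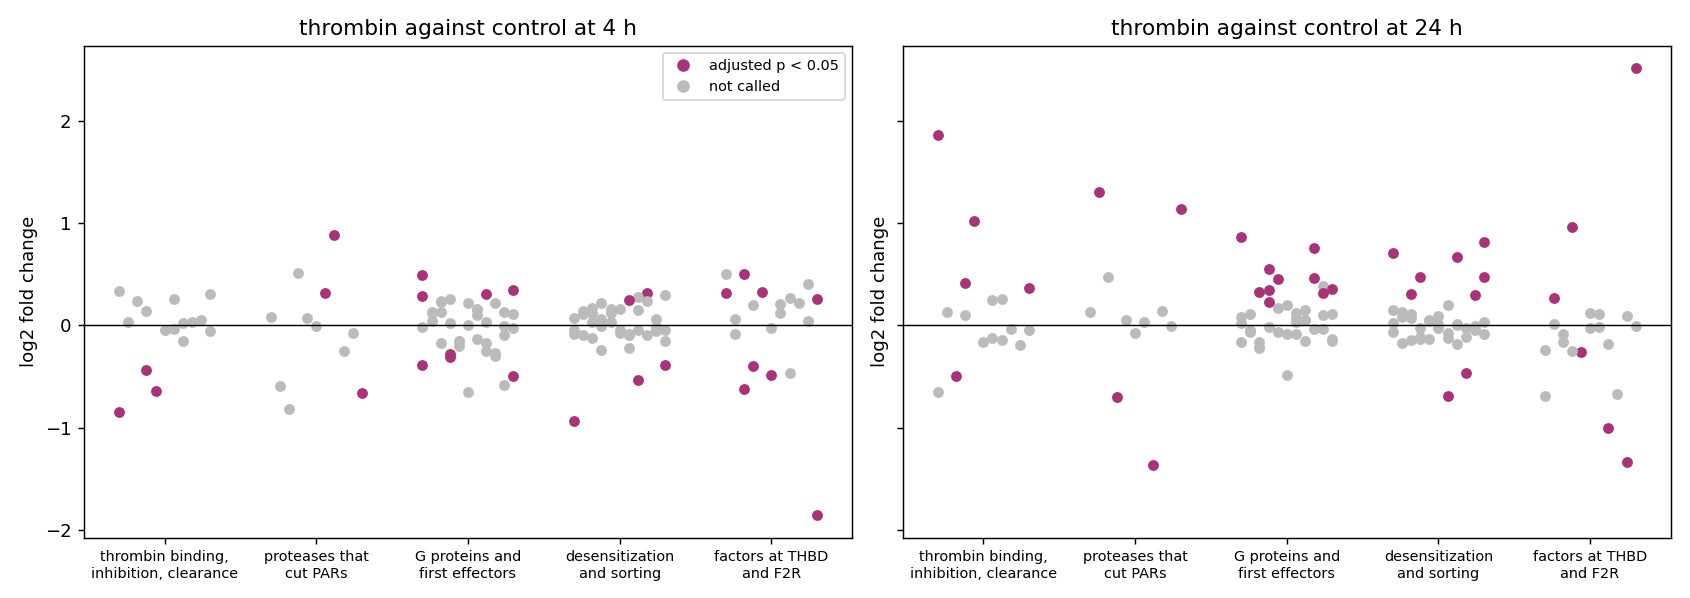
Each point is a tested gene of the 5 lists, with its log2 fold change, thrombin against control, at 4 h on the left and 24 h on the right, purple where the adjusted p was under 0.05. At 24 h all 10 called genes for G proteins and first effectors lie above 0, and the largest value is that of RARB at 2.51.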

How the data were processed

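Gene counts were taken from 18 RNA-seq libraries, 3 in each of 6 groups read from the labels. The authors deposited raw counts per gene symbol, and the values were whole numbers whose totals differed between libraries. The submitters' processing notes list DESeq2, SAMtools 1.21, Bowtie2 2.5.4 and cutadapt 4.9, with GRCh38 (hg38). What each tool did, and the counting program, annotation and strand setting, are not given in the sources used here. The values of genes that share bases with another gene can therefore be affected.

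The analysis used edgeR 4.0.16 under R 4.3.3. The function filterByExpr (minimum count 10, minimum total 15) kept 15353 genes, and TMM factors ran from 0.945 to 1.031. All libraries were fitted together by robust quasi-likelihood, with 1 mean for each group and 12 residual degrees of freedom. The coefficient of variation beyond counting error, common to all genes, was 9.07%. Tests were two-sided, with Benjamini-Hochberg adjustment over all tested genes at a threshold of 0.05. Standard errors are the log2 fold change over the square root of F. Levels are mean ± SD of CPM. Library totals of 14431044 to 23270601 counts limit the precision of F2RL2, F2RL3 and THBD.

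The genes, lists and markers were chosen with earlier results of these data known. From each of the 5 lists, the text names called genes with the smallest adjusted p, up to 4 at 24 h and 2 each at 4 h and 48 h, and for each tested gene the 3 most alike and 3 most opposite in Pearson's r of log2 CPM (prior count 2). The LRAT, LUM and CYGB levels, the endothelial markers named and IQGAP2 were singled out after their values were seen. A few genes that these rules name are not reported here. Coordinates and promoters came from RefSeq (GRCh38.p14), and transcripts from GENCODE 29. Alternatives were DESeq2 1.42.0, library totals alone, no filter on low counts, the libraries of a time alone, a replicate block, leaving out each library or number, and leaving out the libraries of 4 h, the last chosen after the data were seen. The procedure was tested on simulated data.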

Additional observations from a re-analysis of the deposited data

Results flagged for a closer look

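The thrombin effect differed between times for 7 gene and time pairs, each by edgeR's test of the difference itself. Between 4 h and 24 h, where 28% of all tested genes were called, the log2 effect changed by -1.25 for F2R, -1.95 for F2RL1, -1.05 for SERPINE2 and 3.10 for THBD. Between 24 h and 48 h, where 13.8% were called, it changed by 0.96 for F2R, 1.78 for F2RL1 and 1.07 for SERPINE2. Both contrasts use the libraries of 24 h, and both rest on the labels, under which 11 of 15353 genes were called between control 24 h and thrombin 4 h.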

How the results depend on the processing

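For thrombin against control, the calls of the 5 tested genes were the same with library totals alone, no filter on low counts and the libraries of a time alone. They were also the same with a replicate block, without the libraries of 4 h, and with DESeq2 where it gave an adjusted p. At 48 h DESeq2 gave no adjusted p for F2RL1, F2RL2 and THBD, so no call there can be compared. The number of genes called at 48 h, 0 in the fit reported, was 20 with DESeq2, 50 with no filter, 2 with the libraries of that time alone and 1 with the replicate block. The libraries' numbers did not pair them, with correlations of same-numbered deviations from -0.16 to 0.10, and at 4 h and 48 h no thrombin library correlated best with the control library of its own number. With the block, the THBD effect at 48 h minus that at 24 h was -1.66 and was called, as it was with no filter (-1.70). Among the 5 genes it changed no other call. The SERPINE2 effect at 48 h minus that at 4 h, 0.02 and not called, was -0.013 with library totals alone and -0.0055 with no filter. The cause of these changes was not tested.

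With a library or number left out, which leaves fewer samples, the genes called at 4 h ran from 96 (number 13 left out) to 3560 (number 12), those at 24 h from 936 (number 13) to 2489, and those at 48 h from 0 to 5. Against 1813 in the fit reported, they numbered 511 at 4 h without number 14 and 840 to 1019 without thrombin or control library 13 or 14 of 4 h. Against 2700, they numbered 1655 at 24 h without number 14, 1751 without control library 12 and 1731 without thrombin library 14. Of the 5 genes, 0 to 1 rose and 0 to 1 fell at 4 h, and 0 to 1 rose at 24 h. Log2 values for thrombin against control ran from 0.35 to 0.50 for F2R at 4 h, from -1.73 to -0.27 for F2RL2 at 24 h, and for THBD from -1.64 to -1.03 at 4 h, 1.31 to 2.15 at 24 h and -0.072 to 0.40 at 48 h. The change of effect from 4 h to 24 h ran from -1.12 to 0.46 for F2RL2. That from 24 h to 48 h ran from -0.91 to 0.37 for F2RL2 and from -2.0005 to -1.17 for THBD. That from 4 h to 48 h ran from -0.42 to 0.10 for F2RL1, -0.18 to 0.22 for SERPINE2 and 1.01 to 1.80 for THBD. In control, from 4 h to 24 h, F2RL1 ran from 0.46 to 1.01, F2RL2 from -0.70 to 0.083 and THBD from -2.21 to -1.60. From 24 h to 48 h, F2R ran from -0.53 to -0.48, F2RL1 from -0.91 to -0.60 and SERPINE2 from -0.73 to -0.50. From 4 h to 48 h, F2RL1 ran from -0.26 to 0.15, SERPINE2 from -0.18 to 0.016 and THBD from -1.97 to -1.15. With thrombin, from 4 h to 24 h, F2RL2 ran from -1.36 to -0.24 and THBD from 0.74 to 1.58. From 24 h to 48 h, F2RL1 ran from 0.86 to 1.28, F2RL2 from -0.22 to 0.79, SERPINE2 from 0.35 to 0.47 and THBD from -1.62 to -0.78. From 4 h to 48 h, SERPINE2 ran from -0.17 to 0.031 and THBD from -0.28 to 0.23. Depth limits F2RL2, F2RL3 and THBD, with at most 36, 2 and 82 counts in a library.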
